A study of Mus musculus with 13 samples.

Results

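The genes described here are 37 chemokine ligands, receptors and atypical receptors of the mouse, out of 26264 genes in each table. They are a part of the family, chosen by name with earlier results of these data known. They comprise 26 ligands, 7 signalling receptors and 4 atypical receptors. RNA came from right ventricles of 6 wild-type libraries and of 7 libraries from mice carrying the F536C substitution in Dsg2 (Dsg2 F536C knock-in), a change placed in the gene of the desmosomal cadherin desmoglein 2 as a model of arrhythmogenic cardiomyopathy. The labels give no treatment, age, sex or zygosity, and nothing in them says that the libraries are from different animals: the p-values below then speak only of the spread among these libraries, which may be technical.

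Chemokines are small secreted or membrane-bound proteins that guide leukocytes along gradients held on the extracellular matrix. They act through receptors coupled to inhibitory G proteins, and are grouped by the spacing of their first cysteines into CC, CXC and CX3C ligands. Atypical receptors bind chemokines without G protein signalling and remove or transport them. In the heart, macrophages, fibroblasts, endothelium and lymphatic vessels are known sources, and recruitment of CCR2-positive monocytes is a known feature of injured myocardium.

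Dsg2 itself ranged over 33.4 to 61.9 CPM in knock-in and 84.3 to 116.2 CPM in wild type, without overlap (-1.08 ± 0.14 and, without knock-in 4, 5 and 6, -0.97 ± 0.12, log2, SE, adjusted p = 6.96e-05 and 3.16e-05). Read numbers do not show the substitution. Knock-in 4, 5 and 6 stood apart: 10.2% to 10.7% of their values were not whole numbers, against 3.07% to 3.79% in the other libraries, and the 5 epithelial markers summed to 1664 to 3017 CPM in them against at most 28.1 CPM elsewhere. Tests are therefore given for all 13 libraries and for the 10 libraries without these 3. In paired values the 13-library result stands before the 10-library result. Cardiomyocyte markers were abundant in all libraries (summed 13949 to 43493 CPM), although 6 of 6 and then 5 of 6 were called lower in knock-in, and the 4 lung markers summed to at most 0.144 CPM. Totals ran from 14498336 to 29848597 reads per library. CPM here is the count per library total on the usual scale, after scaling by the trimmed mean of M values (TMM), and a gene is called where its adjusted p in edgeR's quasi-likelihood test is under 0.05.

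Of the 37 genes, 32 passed the filter on low counts in each comparison. With 13 libraries 17 were higher in knock-in, 5 were lower and 10 were not called. With 10 libraries 19 were higher, 5 lower and 8 not called. Over all tested genes, 23.6% were called higher and 21.0% lower with 13 libraries (44.6% in either direction), and 22.3% and 21.3% with 10 (43.7% in either direction). The members' own shares were 53.1% higher and 15.6% lower with 13 libraries, and 59.4% and 15.6% with 10. The median log2 fold change of the tested members was 0.87 and 0.99 (log2), beside 0.08 and 0.02 for all tested genes. Of the tested members, 7 of 32 with 13 libraries (Ccl5, Ccl22, Cxcl5, Cxcl10, Ccr7, Cxcr3 and Ackr1) and 4 of 32 with 10 (Ccl17, Ccl22, Cxcr3 and Ackr1) passed the filter only through knock-in levels, so these shares are a description. With library totals in place of TMM the median of all tested genes moved to 0.33 and 0.26 (log2), and the members' calls became 21 higher and 3 lower with 13 libraries and 22 and 4 with 10. Under that scaling 41.9% and 11.4% of all tested genes were called higher and lower with 13 libraries, and 41.7% and 10.5% with 10.

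The genes called higher in both comparisons were Ccl5, Ccl8, Ccl12, Ccl21a, Ccl22, Cxcl5, Cxcl10, Cxcl16, Cx3cl1, Ccr2, Cxcr3, Cxcr4, Cxcr6, Ackr1, Ackr2 and Ackr4, 16 in all. Those lower in both were Ccl11, Ccl24, Cxcl9 and Ackr3, 4 in all. Ccl25 and Ccr7 were called with 13 libraries only, and Ccl9, Ccl17, Cxcl14 and Ccr1 with 10 only. The other 11 were Ccl2, Ccl3, Ccl4, Ccl6, Ccl7, Ccl19, Cxcl1, Cxcl2, Cxcl12, Cxcl13 and Cxcr2. These are bulk tissue values, in which fewer cells of a type and less RNA per cell cannot be told apart.

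**Figure D1:**
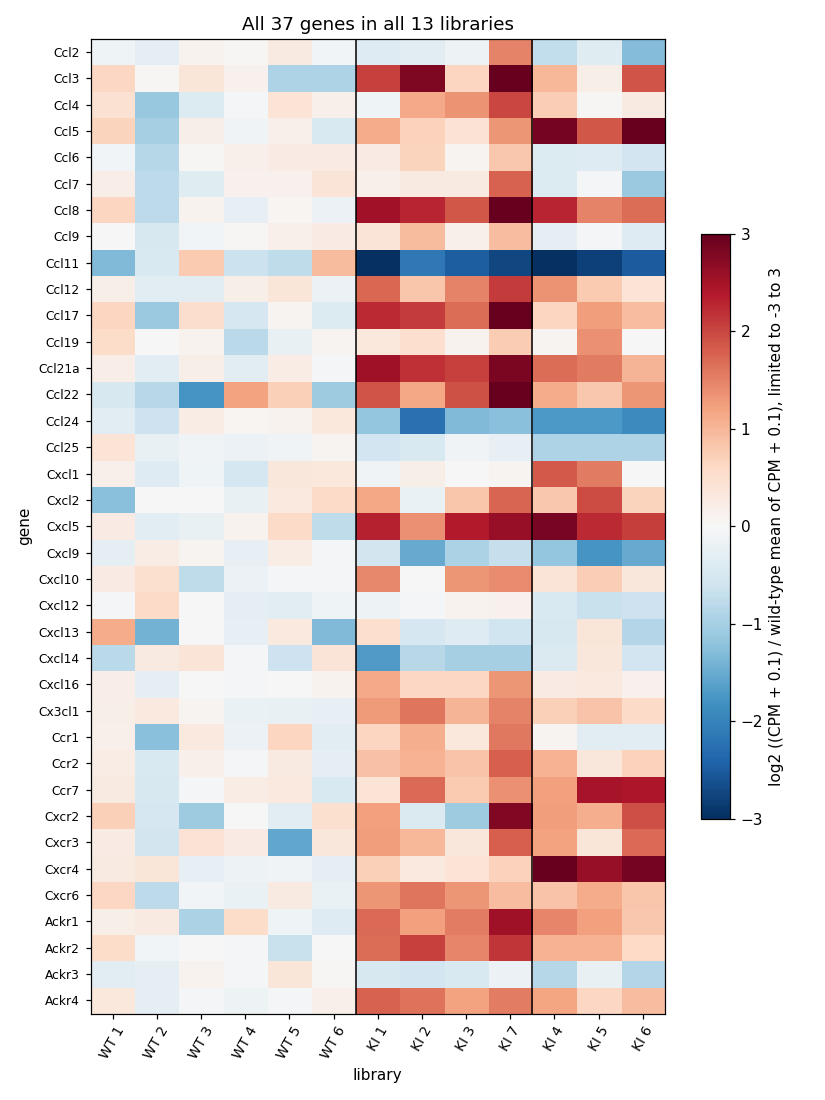
Each row is a chemokine or receptor gene and each column a library; colour is the log2 ratio of CPM + 0.1 to the wild-type mean, limited to -3 to 3. Rows of Ccl8, Ccl21a and Cxcl5 are red in all 7 knock-in (KI) libraries, rows of Ccl11 and Ccl24 are blue in all 7, Cxcr4 and Ccl5 are deepest in KI 4, 5 and 6, and Ccr7 in KI 5 and 6.

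**Figure D2:**
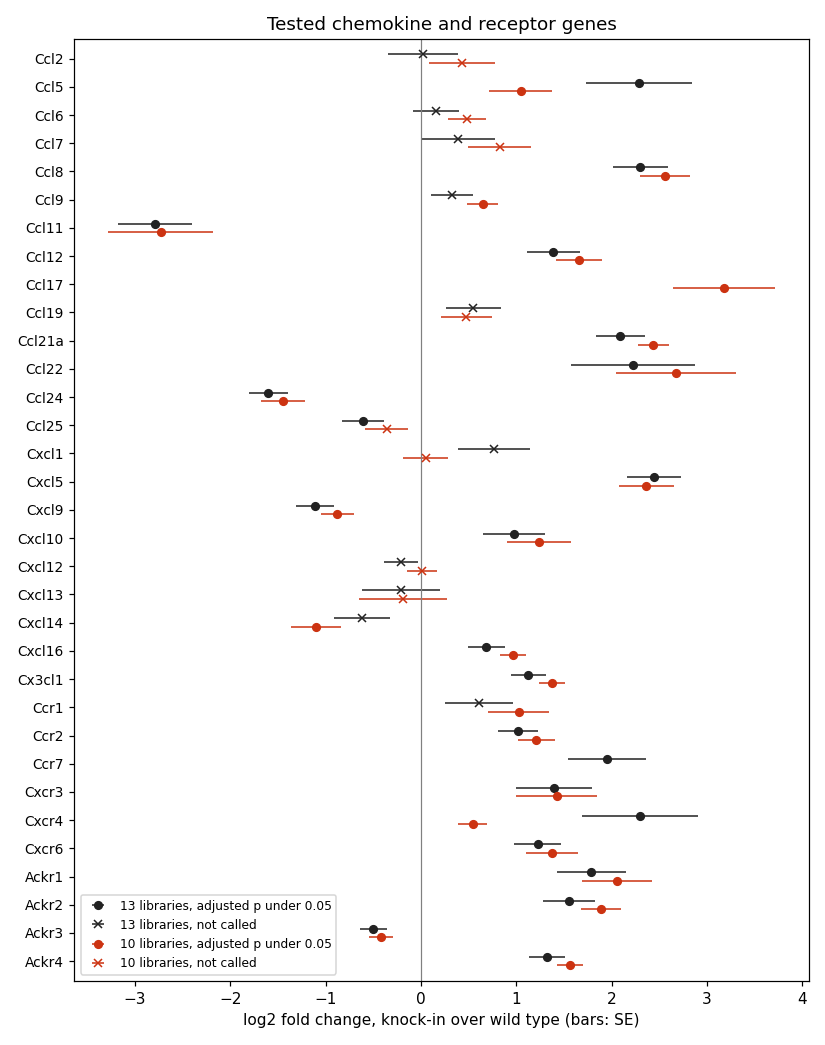
Log2 fold change of knock-in over wild type for each tested gene, with SE bars; black is the comparison of 13 libraries, red that of 10, circles are calls and crosses are not. Ccl11 lies farthest to the left in both, and the value of Cxcr4 drops from 2.30 to 0.54 when knock-in 4, 5 and 6 are left out.

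The monocyte chemoattractant ligands did not move together. Ccl8, a ligand of this family made by resident macrophages, lay between 1.96 and 5.47 CPM in wild type (median 3.37). It was at 20.5, 17.3, 12.9 and 30.8 CPM in knock-in 1, 2, 3 and 7, and at 17.2, 9.9 and 11.4 CPM in knock-in 4, 5 and 6. The groups did not overlap, and the log2 fold changes were 2.30 ± 0.29 and 2.56 ± 0.27 (SE, adjusted p = 5.39e-05 and 2e-05), that is 4.93-fold and 5.89-fold. Ccl12, a mouse ligand of CCR2, lay between 1.49 and 2.48 CPM in wild type (median 1.92). Its knock-in values were 6.59, 3.47, 5.51 and 8.52 CPM in knock-in 1, 2, 3 and 7 and 5.06, 3.39 and 2.58 CPM in knock-in 4, 5 and 6. The groups again did not overlap, with log2 fold changes of 1.39 ± 0.28 and 1.66 ± 0.24 (SE, adjusted p = 0.00139 and 0.000129).

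Ccl2, the best known CCR2 ligand, was not called. Wild-type values ran from 5.64 to 8.35 CPM (median 6.79), and knock-in 1, 2 and 3 had 5.28, 5.39 and 6.16 CPM. Knock-in 7 alone reached 19.6 CPM, and knock-in 4, 5 and 6 had 4.1, 5.37 and 2.73 CPM. The log2 differences were 0.02 ± 0.37 and 0.43 ± 0.35 (SE, adjusted p = 0.972 and 0.335). Without knock-in 7 the 13-library comparison called Ccl2 lower, at -0.51 (log2, adjusted p = 0.0432). Ccl7, another CCR2 ligand, showed the same single high library, 15.3 CPM in knock-in 7 against 1.98 to 5.37 CPM in the other 6, with wild type at 2.52 to 5.85 CPM. Its log2 differences of 0.39 ± 0.38 and 0.83 ± 0.33 (SE, adjusted p = 0.422 and 0.0621) were not called, although the 10 libraries called it without knock-in 1, 2 or 3 (adjusted p = 0.0419, 0.0476 and 0.048).

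The receptor and the scavenger of these ligands were higher. Ccr2, which draws monocytes out of the blood, was at 9.6 to 15.9 CPM in wild type (median 13.8), at 24.3, 27.1, 24.1 and 46 CPM in knock-in 1, 2, 3 and 7, and at 27.3, 16.7 and 21.3 CPM in knock-in 4, 5 and 6. No knock-in library reached down to the wild-type range, although counts of Ccr2 were not whole in 11 libraries, and the log2 fold changes were 1.02 ± 0.21 and 1.21 ± 0.19 (SE, adjusted p = 0.00161 and 0.000359). Ackr2, an atypical receptor that degrades inflammatory CC chemokines, was at 1.56 to 3.79 CPM in wild type (median 2.48). It rose to 8.28, 10.8, 7.14 and 11.6 CPM in knock-in 1, 2, 3 and 7 and to 5.38, 5.37 and 3.89 CPM in knock-in 4, 5 and 6. The lowest of these lay just above the highest wild-type library, with log2 fold changes of 1.55 ± 0.27 and 1.89 ± 0.21 (SE, adjusted p = 0.000572 and 1.77e-05).

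Ccl3, Ccl4, Ccl6, Ccl9 and the receptor Ccr1 gave no call with 13 libraries. Ccl6 and Ccl9, mouse ligands of CCR1, were at 36.5 to 77.8 and 22.6 to 37.4 CPM in wild type. Ccl9 was called with 10 libraries only, at 0.65 ± 0.16 (log2, SE, adjusted p = 0.00596), from 41.4, 60.8, 35.3 and 60.3 CPM in knock-in 1, 2, 3 and 7. Knock-in 4, 5 and 6, at 24 to 30.4 CPM, lay within the wild-type range. Ccl6 was not called, with log2 differences of 0.15 ± 0.24 and 0.49 ± 0.20 (SE, adjusted p = 0.619 and 0.0644), and the 10 libraries called it without wild type 2 (adjusted p = 0.049) or knock-in 3 (adjusted p = 0.0356). Their receptor Ccr1 was at 1.82 to 7.04 CPM in wild type and at 7.03, 9.63, 5.64 and 13.6 CPM in knock-in 1, 2, 3 and 7. It was called with 10 libraries only (1.02 ± 0.32, log2, SE, adjusted p = 0.0192), and no longer without knock-in 7 (adjusted p = 0.0901). Ccl3 and Ccl4, the macrophage inflammatory proteins, did not pass the filter: wild type stayed at or under 0.192 and 0.336 CPM, and knock-in ranged from 0.114 to 1.79 CPM for Ccl3 and from 0.194 to 1.19 CPM for Ccl4, again highest in knock-in 7.

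As a sum, macrophage markers lay above the wild-type range in knock-in 1, 2, 3 and 7 and within it in knock-in 4, 5 and 6. Of the 8 macrophage markers, 4 were called higher with 13 libraries and 7 with 10, none lower, and their summed level was 617 to 964 CPM in wild type, 1036 to 1894 CPM in knock-in 1, 2, 3 and 7 and 781 to 889 CPM in knock-in 4, 5 and 6. Csf1r was at 0.26 and 0.38 and Adgre1 at 0.66 and 0.88 (log2). Of the 4 monocyte markers 3 were tested: none was called higher and 1 lower with 13 libraries, and 1 was higher and none lower with 10. The part of cell numbers in the rises of Ccl8, Ccl12 and Ccr2 was not tested.

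**Figure D3:**
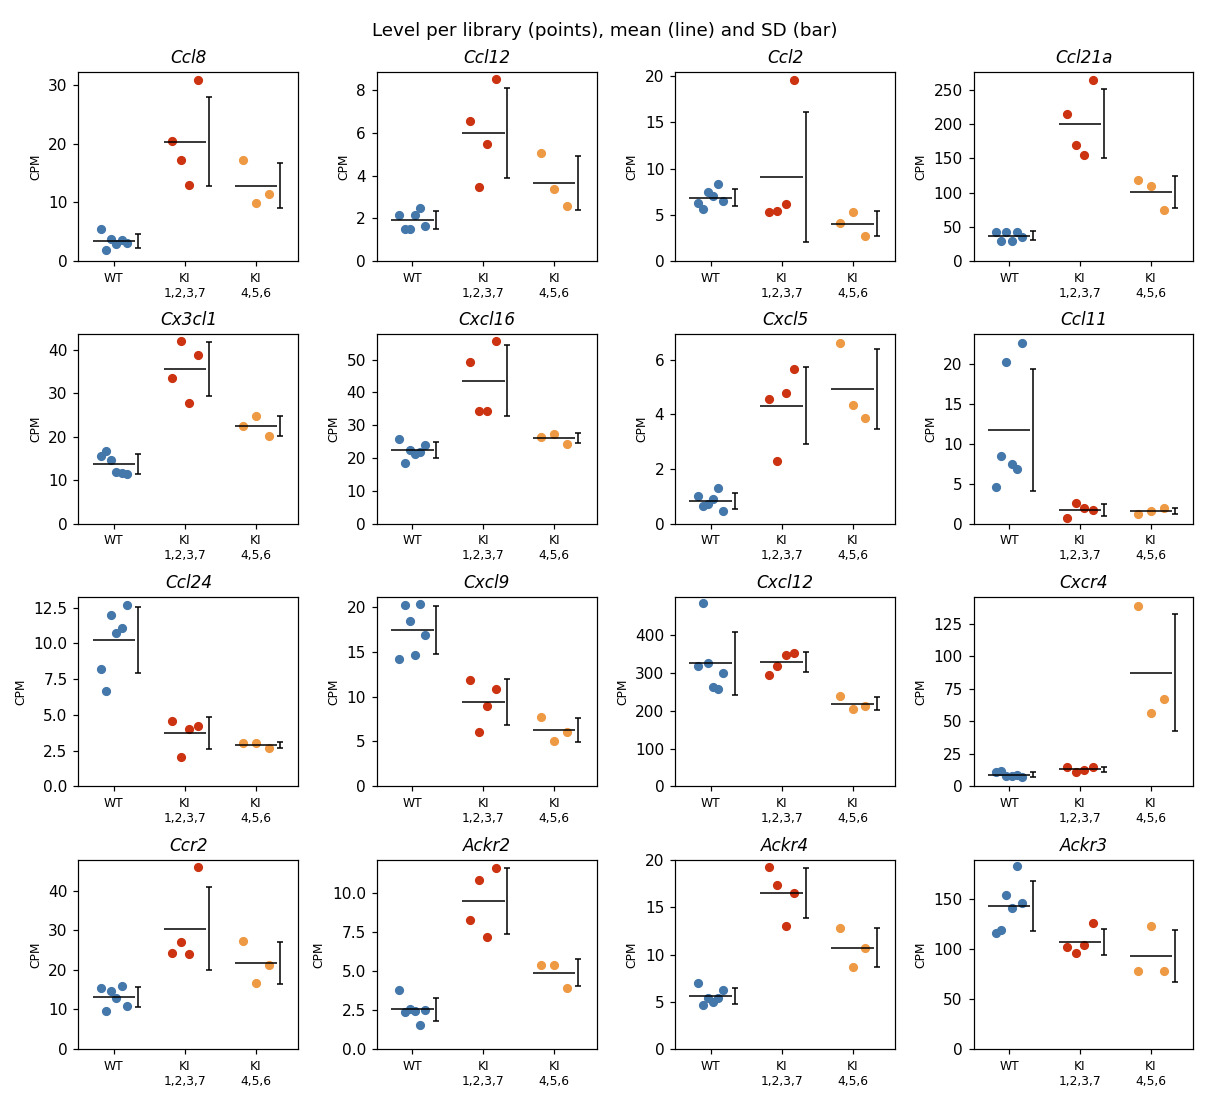
CPM of 16 genes in each library, on linear axes from 0, for wild type (blue, 6), knock-in 1, 2, 3 and 7 (red, 4) and knock-in 4, 5 and 6 (orange, 3); lines are means and bars SD. Ccl2 is high in knock-in 7 alone (19.6 CPM), and Cxcr4 is high in knock-in 4, 5 and 6 (56.2 to 139 CPM).

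Ccl21a, which guides dendritic and T cells into lymphatic vessels and is made by lymphatic endothelium, had the highest per-length level (TPM) of the called ligands in wild type, 58.4 ± 8.62 TPM (SD, n = 6). Wild type lay between 29.1 and 43.1 CPM (median 39). Knock-in 1, 2, 3 and 7 had 215, 169, 154 and 264 CPM, and knock-in 4, 5 and 6 had 118, 109 and 75 CPM. The groups did not overlap, and the log2 fold changes were 2.09 ± 0.26 and 2.44 ± 0.16 (SE, adjusted p = 5.3e-05 and 5.8e-07), that is 4.26-fold and 5.42-fold. The genome holds near-identical copies, and Ccl21a took 77.7% to 83.3% of the reads given to Ccl21a, Ccl21b, Ccl21c and Ccl21d, so the split between them is uncertain. Summed, the 4 copies were at 35.3 to 55 CPM in wild type against 96.2 to 331 CPM in knock-in.

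Ccl19, the other ligand of CCR7, was not called (0.55 ± 0.29 and 0.47 ± 0.27, log2, SE, adjusted p = 0.128 and 0.166), although with library totals it was called higher (0.80 and 0.71, adjusted p = 0.0403 and 0.0482). Of the reads given to it and to the pseudogenes Ccl19-ps1 and Ccl19-ps2 it held 14% to 26.7%, so its level is uncertain. Ccr7 was sparse, at 0.186 to 0.391 CPM in wild type against 0.436 to 2.13 CPM in knock-in, without overlap. It was called with 13 libraries (1.95 ± 0.41, log2, SE, adjusted p = 0.00195), was highest in knock-in 5 and 6 (2.13 and 2.04 CPM), and did not pass the filter with 10. With 13 libraries it passed through knock-in levels, with no wild-type library at the filter's cutoff, so the call is read only beside its levels. Ackr4, which scavenges CCL19 and CCL21, was at 4.61 to 6.96 CPM in wild type (median 5.4). It was at 19.3, 17.4, 13 and 16.5 CPM in knock-in 1, 2, 3 and 7 and at 12.8, 8.65 and 10.7 CPM in knock-in 4, 5 and 6. These groups did not overlap either, with log2 fold changes of 1.32 ± 0.19 and 1.56 ± 0.14 (SE, adjusted p = 0.000127 and 3.41e-06). An exon of Ackr4 overlaps Acad11 on the opposite strand, and whether counting used strand is not stated, so its level is uncertain.

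Among 5 lymphatic endothelial markers, 3 were called higher and 1 lower with 13 libraries, and 4 higher and 1 lower with 10. Mmrn1 was at 1.67 and 2.05, Flt4 at 0.97 and 1.25 and Lyve1 at 0.64 and 1.00, while Prox1, which cardiomyocytes also express, was at -1.17 and -0.98 (log2). The summed level was 207 to 256 CPM in wild type, 322 to 432 CPM in knock-in 1, 2, 3 and 7 and 176 to 220 CPM in knock-in 4, 5 and 6. The part of lymphatic cell numbers in the rise of Ccl21a was not tested.

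The ligands anchored in the membrane, Cx3cl1 and Cxcl16, and their receptors were all higher. Cx3cl1, fractalkine, is an adhesive ligand of endothelium for monocytes. It was at 11.5 to 16.8 CPM in wild type (median 13.3), at 33.5, 42, 27.8 and 38.8 CPM in knock-in 1, 2, 3 and 7, and at 22.5, 24.7 and 20.3 CPM in knock-in 4, 5 and 6. No library of either group entered the other's range, and the log2 fold changes were 1.13 ± 0.18 and 1.37 ± 0.14 (SE, adjusted p = 0.000305 and 8.91e-06). Its receptor Cx3cr1 was at 1.21 ± 0.21 and 1.38 ± 0.21 (log2, SE, adjusted p = 0.000529 and 0.000237), from 6.83 ± 1.71 CPM (SD, n = 6) to 15.8 ± 4.83 CPM (SD, n = 7).

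Cxcl16, which also binds oxidised lipoprotein, was at 18.5 to 25.7 CPM in wild type and at 49.4, 34.5, 34.5 and 55.8 CPM in knock-in 1, 2, 3 and 7. Knock-in 4, 5 and 6 had 26.4, 27.3 and 24.4 CPM, so the groups met only there. The log2 fold changes were 0.69 ± 0.19 and 0.97 ± 0.14 (SE, adjusted p = 0.0101 and 0.000129). An exon of Cxcl16 overlaps Zmynd15 on the opposite strand, and its counts were not whole in knock-in 4, 5 and 6, so those values are uncertain. Cxcr6, its receptor on T and NKT cells, was at 0.606 to 1.77 CPM in wild type, at 2.96, 3.63, 2.95 and 2.21 CPM in knock-in 1, 2, 3 and 7 and at 2.11, 2.55 and 2.07 CPM in knock-in 4, 5 and 6. All 7 lay above wild type, with log2 fold changes of 1.23 ± 0.25 and 1.38 ± 0.27 (SE, adjusted p = 0.00158 and 0.00114).

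Ccl17 and Ccl22, ligands of CCR4 that mature dendritic cells and alternatively activated macrophages make, were rare. Ccl17 had 12 reads over the 6 wild-type libraries and 123 over the 7 knock-in libraries. It was tested with 10 libraries only, where it passed the filter through its knock-in values of 0.921, 0.825, 0.59 and 1.86 CPM against 0 to 0.24 CPM in wild type (3.18 ± 0.54, log2, SE, adjusted p = 0.000403). Ccl22 had 26 and 198 reads, passed the filter in the same way, and was called in both comparisons (2.22 ± 0.65 and 2.67 ± 0.63, log2, SE, adjusted p = 0.0139 and 0.00402). Wild type 4, at 0.692 CPM, overlapped the knock-in range of 0.495 to 3.19 CPM. Their receptor Ccr4 stayed at or under 0.144 CPM in wild type, and under that also in knock-in 1, 2, 3 and 7 (at most 0.0701 CPM), and was at 0.358 to 0.686 CPM in knock-in 4, 5 and 6. Of 6 dendritic cell markers 4 were higher in both comparisons, none was lower, and the sum was 12.6 to 17.9 CPM in wild type, 23.3 to 66.8 CPM in knock-in 1, 2, 3 and 7 and 20.6 to 24.6 CPM in knock-in 4, 5 and 6; their part in these rises was not tested.

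The eotaxins fell. Ccl11, eotaxin 1, a fibroblast product that attracts eosinophils, was at 4.61 to 22.6 CPM in wild type (median 7.96), with wild type 3 and 6 at 20.3 and 22.6 CPM and the other 4 at 4.61 to 8.48 CPM. Knock-in 1, 2, 3 and 7 had 0.775, 2.59, 2.03 and 1.68 CPM and knock-in 4, 5 and 6 had 1.19, 1.6 and 1.98 CPM. Even the highest of these lay below the lowest wild-type library, and the log2 fold changes were -2.79 ± 0.39 and -2.73 ± 0.55 (SE, adjusted p = 0.000127 and 0.00282). Ccl24, eotaxin 2, which macrophages make, was at 6.66 to 12.7 CPM in wild type (median 10.9). It was at 4.55, 2.09, 4 and 4.21 CPM in knock-in 1, 2, 3 and 7 and at 3.03, 3.01 and 2.67 CPM in knock-in 4, 5 and 6. Its groups did not overlap, with log2 fold changes of -1.60 ± 0.21 and -1.45 ± 0.23 (SE, adjusted p = 6.56e-05 and 0.000251).

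The eotaxin receptor Ccr3 was close to the floor, at 0 to 0.144 CPM in wild type, 0 to 0.145 CPM in knock-in 1, 2, 3 and 7 and 0.239 to 0.44 CPM in knock-in 4, 5 and 6. The 4 eosinophil markers summed to 0.0643 to 0.283 CPM in wild type, 0.275 to 0.912 CPM in knock-in 1, 2, 3 and 7 and 0.229 to 0.408 CPM in knock-in 4, 5 and 6, and none passed the filter. The macrophage markers above were called higher or not called, with Cd163 at -0.29 and -0.33 (log2, not called). Of the 5 fibroblast markers 1 and 4 were called higher and none lower. The part of cell numbers in the falls of Ccl11 and Ccl24 was not tested. Ccl25, a thymic and intestinal ligand, was called lower with 13 libraries only (-0.61 ± 0.22 and -0.36 ± 0.22, log2, SE, adjusted p = 0.035 and 0.213). That call was lost when any of wild type 1, wild type 6, knock-in 4, knock-in 5 or knock-in 6 was left out (adjusted p = 0.0614 to 0.0843), and under library totals, where p after adjustment was 0.187. An exon of Ccl25 overlaps Elavl1 on the opposite strand.

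The ligands of CXCR3 went in opposite directions. Cxcl9, a target of interferon gamma, was at 14.2 to 20.3 CPM in wild type (median 17.6), at 11.8, 6.05, 8.98 and 10.8 CPM in knock-in 1, 2, 3 and 7 and at 7.77, 5.03 and 6.03 CPM in knock-in 4, 5 and 6. Every knock-in library lay below wild type, with log2 fold changes of -1.11 ± 0.20 and -0.88 ± 0.17 (SE, adjusted p = 0.000607 and 0.00112). Cxcl10, induced by interferons and by NF-kappaB, was at 0.354 to 0.979 CPM in wild type and at 1.99, 0.66, 1.84 and 1.96 CPM in knock-in 1, 2, 3 and 7. Knock-in 2 alone of these lay within the wild-type range, and knock-in 4, 5 and 6 had 0.916, 1.18 and 0.879 CPM. The log2 fold changes were 0.98 ± 0.32 and 1.24 ± 0.34 (SE, adjusted p = 0.0239 and 0.00859). With 13 libraries it passed the filter through knock-in levels, with 5 wild-type libraries at the cutoff. An exon of Cxcl10 overlaps Art3 on the opposite strand.

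Cxcr3, the receptor of both on activated T and NK cells, had 41 reads in wild type and 179 in knock-in and was called (1.39 ± 0.40 and 1.42 ± 0.42, log2, SE, adjusted p = 0.0123 and 0.0141). It passed the filter through knock-in levels, and knock-in 3 (0.524 CPM) and 5 (0.533 CPM) lay within the wild-type range of 0.0652 to 0.567 CPM. Ccl5, a T cell and NK cell ligand, was at 0.326 to 1.25 CPM in wild type and at 1.74, 1.27, 1.05 and 2.03 CPM in knock-in 1, 2, 3 and 7. It was far higher in knock-in 4, 5 and 6, at 6.05, 2.97 and 10.3 CPM, and its log2 fold changes differed accordingly, 2.29 ± 0.56 and 1.05 ± 0.33 (SE, adjusted p = 0.00514 and 0.0206). With 13 libraries Ccl5 passed the filter through knock-in levels, with 4 wild-type libraries at the cutoff. The call with 10 libraries was lost without knock-in 1 (adjusted p = 0.0621) or 7 (adjusted p = 0.0902). Of the 6 T cell markers measured, 4 were tested, 3 and 2 were called higher and none lower, and the sum was 1.54 to 4.89 CPM in wild type, 5.77 to 7.29 CPM in knock-in 1, 2, 3 and 7 and 6.93 to 11.5 CPM in knock-in 4, 5 and 6. The 4 NK cell markers summed to 0.559 to 2.3 CPM in wild type, 1.05 to 2.28 CPM in knock-in 1, 2, 3 and 7 and 1.73 to 1.83 CPM in knock-in 4, 5 and 6; 1 of them was tested with 13 libraries, and not called, and 0 with 10. Their part in these values was not tested.

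Among the members that are ligands of CXCR2, which recruit neutrophils, Cxcl5 was the one called. It was at 0.45 to 1.3 CPM in wild type (median 0.806), at 4.55, 2.31, 4.78 and 5.65 CPM in knock-in 1, 2, 3 and 7 and at 6.61, 4.34 and 3.86 CPM in knock-in 4, 5 and 6. The groups did not overlap, and the log2 fold changes were 2.44 ± 0.28 and 2.36 ± 0.29 (SE, adjusted p = 3.14e-05 and 4.31e-05). With 13 libraries it passed the filter through knock-in levels, 5 wild-type libraries of the 6 needed being at the cutoff, and with 10 through wild type as well. Cxcl1 was not called (0.77 ± 0.38 and 0.05 ± 0.23, log2, SE, adjusted p = 0.11 and 0.882), with knock-in 4 and 5 at 6.45 and 5.26 CPM and the other 11 libraries at 1.17 to 2.22 CPM. Cxcl2 and the receptor Cxcr2 did not pass the filter, with at most 0.257 and 0.24 CPM in wild type and 0.838 and 1.33 CPM in knock-in. Ppbp, a chemokine outside the members, was called higher with 10 libraries only (0.57 ± 0.33 and 0.81 ± 0.31, log2, SE, adjusted p = 0.164 and 0.0486). Of 6 neutrophil markers 3 were tested and Csf3r alone was called, higher in both comparisons, and Ly6g had no read in any library. The 6 markers summed to 2.47 to 14.8 CPM in wild type, 5.33 to 16.7 CPM in knock-in 1, 2, 3 and 7 and 8.07 to 29.9 CPM in knock-in 4, 5 and 6.

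The CXCL12 axis divided between its receptors. Cxcl12, which retains stem cells and leukocytes in tissue, had the highest mean per-length level of all members in wild type, 92.8 ± 28.4 TPM (SD, n = 6). That mean includes wild type 2 at 148 TPM, and Ackr3 was above Cxcl12 in wild type 3, 4, 5 and 6. Cxcl12 was at 258 to 485 CPM in wild type (median 308) and 205 to 353 CPM in knock-in (median 294). It was not called (-0.21 ± 0.18 and 0.02 ± 0.16, log2, SE, adjusted p = 0.344 and 0.945), although on log2(TPM + 1) the differences were 0.35 and 0.57 (adjusted p = 0.0939 and 0.00849), the second a call. Cxcr4, its signalling receptor, was at 7.53 to 11.8 CPM in wild type, at 15.1, 11.2, 12.3 and 14.9 CPM in knock-in 1, 2, 3 and 7 and at 139, 56.2 and 67.2 CPM in knock-in 4, 5 and 6. Knock-in 2 lay within the wild-type range and the last 3 far outside it. The log2 fold change of 2.30 ± 0.61 (SE, adjusted p = 0.00928) became 0.54 ± 0.15 (SE, adjusted p = 0.00949) without those 3, and with an indicator for them in the model it was 0.54 (adjusted p = 0.0796).

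Ackr3, the atypical receptor that clears CXCL12, was at 116 to 184 CPM in wild type (median 144). It was at 102, 96.8, 104 and 126 CPM in knock-in 1, 2, 3 and 7 and at 78.7, 123 and 78.3 CPM in knock-in 4, 5 and 6, so that knock-in 7 and 5 reached into the wild-type range. The log2 fold changes of -0.50 ± 0.14 and -0.42 ± 0.13 (SE, adjusted p = 0.0114 and 0.0172) were calls under TMM, but with library totals they were -0.23 and -0.15 (adjusted p = 0.176 and 0.269). The call with 10 libraries was also lost without knock-in 1 (adjusted p = 0.0503). Cxcl14, an epithelial and fibroblast ligand, was at 18.1 to 41.5 CPM in wild type, at 9.79, 17.8, 15.9 and 15.8 CPM in knock-in 1, 2, 3 and 7 and at 23.7, 40.6 and 21.5 CPM in knock-in 4, 5 and 6. It was called with 10 libraries only, where the groups did not overlap (-1.10 ± 0.27, log2, SE, adjusted p = 0.00602), against -0.62 ± 0.29 (SE, adjusted p = 0.102) with 13, a value that was called without knock-in 5 (-0.86, adjusted p = 0.0145). Cxcl13, the B cell ligand of CXCR5, was not called (-0.21 ± 0.41 and -0.19 ± 0.47, log2, SE, adjusted p = 0.693 and 0.77), with 0.652 to 4.27 CPM in wild type against 1 to 2.76 CPM in knock-in. Knock-in 4, 5 and 6 are the libraries with the high epithelial markers. Of the knock-in libraries, these held the highest value of Ccl5, Ccl19, Cxcl1, Cxcl2, Cxcl5, Cxcl14, Cxcr4 and Ccr7. The part of that material in their levels was not tested.

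Ackr1, which carries chemokines across venules and is also on red cells, was at 0.142 to 0.585 CPM in wild type against 0.722 to 2.63 CPM in knock-in, without overlap. It passed the filter through knock-in levels and was called (1.79 ± 0.36 and 2.06 ± 0.37, log2, SE, adjusted p = 0.00145 and 0.000575). Of 4 venous markers 2 and 3 were higher, none was lower, and the sum was 178 to 323 CPM in wild type, 295 to 679 CPM in knock-in 1, 2, 3 and 7 and 260 to 347 CPM in knock-in 4, 5 and 6, while none of 5 erythroid genes was called. The part of venules in the rise of Ackr1 was not tested.

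Among the 32 tested members, groups that did not overlap were found for 11 higher and 3 lower genes with 13 libraries, and for 12 and 4 with 10. Of the higher genes, Cxcl5, Ccr7 and Ackr1 with 13 libraries, and Ccl17 and Ackr1 with 10, passed the filter through knock-in levels. Over all tested genes the shares without overlap, higher and lower, were 8.61% and 10.5% with 13 libraries and 14.8% and 15.1% with 10. The lower members were no larger a share than that. Knock-in 7 was the highest of the 7 knock-in libraries for 19 of the 37 genes, and the macrophage markers also summed highest in it, at 1894 CPM.

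Several members lie next to each other, and neighbours did not always share a direction. On chromosome 11, Ccl2, Ccl7, Ccl11, Ccl12 and Ccl8 follow each other with no other coding gene of the tables between them: the log2 fold changes along this row were 0.02, 0.39, -2.79, 1.39 and 2.30 with 13 libraries and 0.43, 0.83, -2.73, 1.66 and 2.56 with 10. Ccl11 was called lower between genes not called on its left and genes called higher on its right. On chromosome 8, Ccl22, Cx3cl1 and Ccl17 also follow each other directly, and all were higher with 10 libraries, at 2.67, 1.37 and 3.18 (log2). Ccl22 and Ccl17 passed the filter there only through knock-in levels, so the shared direction is a description. Ccl17 was not tested with 13 libraries. On chromosome 5, Cxcl9 and Cxcl10 are separated by Art3 alone and were called in opposite directions.

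**Figure D4:**
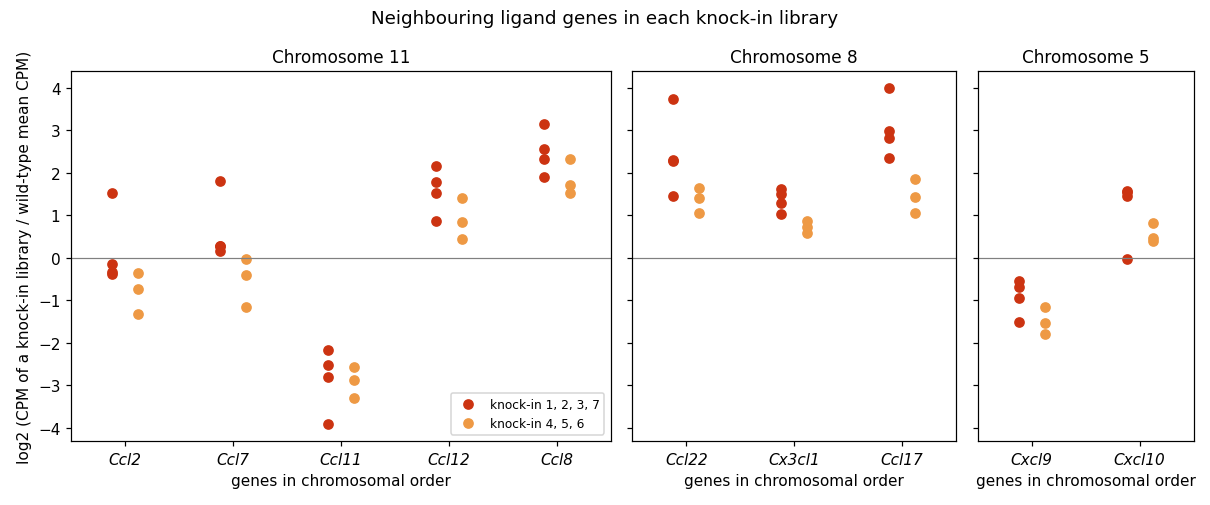
Log2 ratio of each knock-in library to the wild-type mean CPM for ligand genes in chromosomal order; red points are knock-in 1, 2, 3 and 7, orange points knock-in 4, 5 and 6, and the line at 0 is the wild-type mean. All 7 points of Ccl11 lie below the line, and all 7 points of its neighbours Ccl12 and Ccl8 above it.

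The 250 bases before the start of these neighbouring genes are shown to compare promoters of genes that rose together or apart. They are from RefSeq for GRCm38.p6, an older build than the one the tables used, and the table held 28 of the 37 members. Ccl11, Ccl2, Ccl24, Ccl4, Ccl5, Ccl7, Ccr7, Cxcl16 and Cxcl5 had no entry. Capitals mark matches on either strand to TATAAA, to an interferon response element core (TTTC, 2 bases of any kind, TTTC) and to the NF-kappaB motif. The positions are chr11:82101595-82101844 (plus strand) for Ccl12, chr11:82114935-82115184 (plus) for Ccl8, chr8:94745434-94745683 (plus) for Ccl22, chr8:94771930-94772179 (plus) for Cx3cl1, chr8:94810203-94810452 (plus) for Ccl17, chr5:92328080-92328329 (minus) for Cxcl9 and chr5:92348890-92349139 (minus) for Cxcl10.
Ccl12: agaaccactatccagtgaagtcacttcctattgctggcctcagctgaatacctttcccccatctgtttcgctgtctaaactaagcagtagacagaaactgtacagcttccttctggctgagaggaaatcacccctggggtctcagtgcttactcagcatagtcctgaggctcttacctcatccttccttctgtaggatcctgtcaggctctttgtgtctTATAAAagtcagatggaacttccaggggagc
Ccl8: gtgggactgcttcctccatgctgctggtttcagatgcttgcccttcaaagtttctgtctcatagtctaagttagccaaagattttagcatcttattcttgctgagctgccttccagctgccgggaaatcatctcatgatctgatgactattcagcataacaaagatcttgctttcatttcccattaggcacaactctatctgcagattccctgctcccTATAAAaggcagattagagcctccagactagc
Ccl22: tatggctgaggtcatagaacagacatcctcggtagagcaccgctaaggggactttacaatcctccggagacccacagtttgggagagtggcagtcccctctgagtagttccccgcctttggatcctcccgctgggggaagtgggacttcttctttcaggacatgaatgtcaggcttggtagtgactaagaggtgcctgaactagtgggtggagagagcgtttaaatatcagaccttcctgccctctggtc
Cx3cl1: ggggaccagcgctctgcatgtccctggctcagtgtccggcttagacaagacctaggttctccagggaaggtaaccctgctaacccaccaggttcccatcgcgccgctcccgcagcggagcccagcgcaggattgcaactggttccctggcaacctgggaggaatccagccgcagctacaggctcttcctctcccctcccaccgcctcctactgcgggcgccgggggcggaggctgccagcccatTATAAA
Ccl17: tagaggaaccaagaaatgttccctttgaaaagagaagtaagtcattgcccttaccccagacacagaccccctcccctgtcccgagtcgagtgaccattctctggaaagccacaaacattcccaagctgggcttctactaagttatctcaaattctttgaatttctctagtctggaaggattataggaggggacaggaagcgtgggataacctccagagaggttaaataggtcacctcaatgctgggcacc
Cxcl9: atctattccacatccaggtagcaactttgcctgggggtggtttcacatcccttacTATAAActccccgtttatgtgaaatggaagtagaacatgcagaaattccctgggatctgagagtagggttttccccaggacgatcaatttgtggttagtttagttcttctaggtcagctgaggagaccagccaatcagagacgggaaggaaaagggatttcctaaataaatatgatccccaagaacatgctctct
Cxcl10: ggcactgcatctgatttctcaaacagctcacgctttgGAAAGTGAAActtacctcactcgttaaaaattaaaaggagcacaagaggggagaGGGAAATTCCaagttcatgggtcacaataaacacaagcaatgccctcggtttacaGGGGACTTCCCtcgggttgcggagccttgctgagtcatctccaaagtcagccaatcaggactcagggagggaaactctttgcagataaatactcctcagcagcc

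Ccl12 and Ccl8, which rose side by side, each hold TATAAA, beginning 31 and 32 bases before the start. Cx3cl1 holds it ending at the start, and Ccl22 and Ccl17 hold none of the motifs searched. Cxcl10, which rose, has NF-kappaB matches at 159, 104 and 103 bases, the last 2 overlapping, and an interferon element match at 213 bases. Cxcl9, which fell, has neither of these kinds in its window and a TATAAA match at 195 bases. Over all 32851 promoters of this length, 12.4% hold TATAAA, 2.98% the interferon element and 7.25% the NF-kappaB motif, and among the 28 members in the table these were found in 10, 3 and 6. A member counted where any of its promoters matched, while the percentages count each promoter singly, so they are not like for like. The 6 with the NF-kappaB motif were Cxcl1, Cxcl2, Cxcl10, Ackr2, Ccr1 and Ccl9, of which Cxcl10 and Ackr2 were called in both comparisons. A match is a description of letters and not of binding.

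Per length of transcript, the make-up of the ligand mRNA shifted. In TPM, a per-length level, Ccl21a took 16.9% ± 2.37 (SD, n = 6) of the summed level of the 26 ligands in wild type, 43.2% ± 2.54 (SD, n = 4) in knock-in 1, 2, 3 and 7 and 35.2% ± 3.82 (SD, n = 3) in knock-in 4, 5 and 6. Cxcl12, the leading ligand in wild type at 26.5% ± 6.39 (SD, n = 6), took 14.4% ± 2.66 (SD, n = 4) and 15.1% ± 1.06 (SD, n = 3) in the knock-in libraries, while its own level was 70.8 to 148 TPM in wild type, 123 to 155 TPM in knock-in 1, 2, 3 and 7 and 89.5 to 98.5 TPM in knock-in 4, 5 and 6. Ccl8 went from 3.45% ± 1.12 (SD, n = 6) to 9.4% ± 1.37 (SD, n = 4) and 9.95% ± 2.25 (SD, n = 3). Ccl11 held 4.39% ± 2.65 (SD, n = 6) in wild type and 0.333% ± 0.171 (SD, n = 4) and 0.486% ± 0.193 (SD, n = 3) in knock-in, and Ccl24 held 2.84% ± 0.548 (SD, n = 6), then 0.495% ± 0.161 (SD, n = 4) and 0.628% ± 0.0438 (SD, n = 3). The summed ligand level was 316 to 378 TPM in wild type, 759 to 1341 TPM in knock-in 1, 2, 3 and 7 and 549 to 683 TPM in knock-in 4, 5 and 6. The shares depend on the split of reads among the Ccl21 copies, and a sum in TPM also holds a general shift, since the median log2 difference of all tested genes on the log2(TPM + 1) scale was 0.39 and 0.32.

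**Figure D5:**
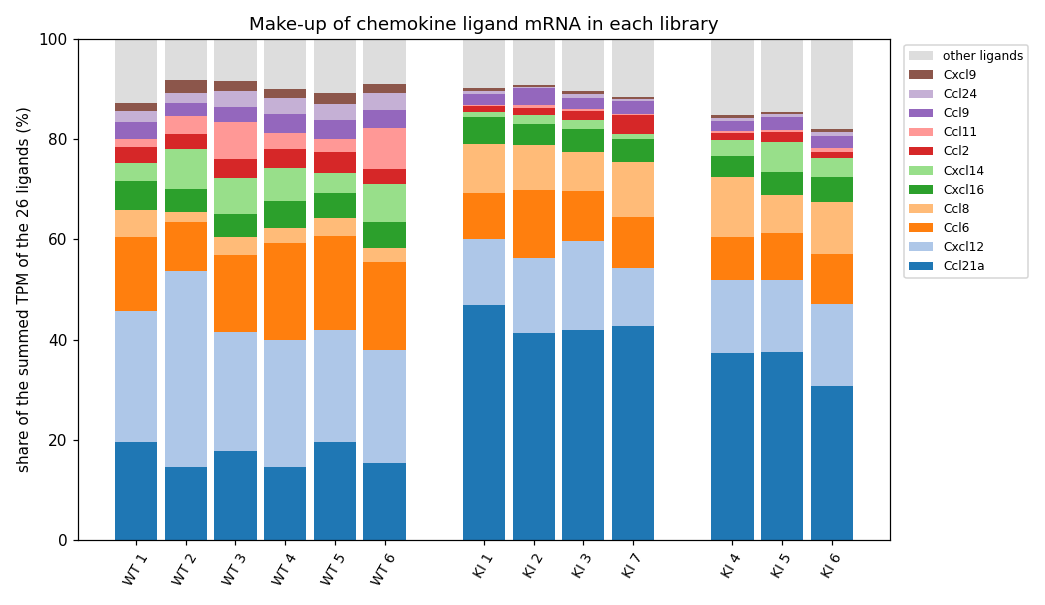
Share of each ligand in the summed TPM of the 26 ligands, as stacked bars for each wild-type (WT) and knock-in (KI) library. The blue block at the foot, Ccl21a, is larger in each of the 7 knock-in bars than in all 6 wild-type bars, and the pink Ccl11 and lilac Ccl24 blocks are smaller.

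The other genes of the chemokine system, 120 in 4 lists, were read by the same test. Over all of them 59 were called higher and 6 lower with 13 libraries, and 61 and 6 with 10. Not all of them passed the filter, and the numbers tested are given below by list. Of all tested genes, 23.6% were called higher and 21.0% lower with 13 libraries, and 22.3% and 21.3% with 10. Of the 25 other chemokines and receptors, 8 and 9 passed the filter, 3 and 5 were higher and 2 lower. Besides Cx3cr1, Xcr1, the receptor of cross-presenting dendritic cells, was at 1.51 ± 0.33 and 1.80 ± 0.33 (log2, SE, adjusted p = 0.00283 and 0.000749). Ccrl2, a non-signalling receptor that presents chemerin, was at -0.89 ± 0.18 and -0.60 ± 0.11 (log2, SE, adjusted p = 0.00156 and 0.000772), and on log2(TPM + 1) with 10 libraries the value was -0.21 (adjusted p = 0.149). The lists were written with results of these data known.

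Of 40 genes of receptor signalling and desensitisation, 30 and 29 were higher and 2 lower in each comparison, with medians of 0.61 and 0.68 (log2). Pik3r5, the adaptor of PI3-kinase gamma, was at 1.71 and 1.84, the focal adhesion-related kinase Ptk2b at 1.03 and 1.04, and Grk5, a kinase that desensitises receptors, at 0.56 and 0.84 (log2). Of 22 genes of processing and presentation 21 were tested, 10 and 13 were higher and 1 was lower in each. The matrix proteases Mmp2 and Mmp14, which can trim chemokines, were at 1.35 and 1.03 and at 1.86 and 0.87, and the heparan sulfate proteoglycan Sdc4, which can hold them, at 1.11 and 1.00 (log2). Of 33 inducing cytokines, their receptors and transcription factors, 26 and 25 were tested, 16 and 14 were higher and 1 was lower in each. The interleukin 1 receptor Il1r1 was at 0.78 and 1.07, and the TNF receptors Tnfrsf1a and Tnfrsf1b at 0.46 and 0.69 and at 0.82 and 1.05 (log2). Over all tested genes the medians were 0.08 and 0.02, and leukocytes express many of the signalling genes, so these counts stand beside the myeloid markers given above; their part was not tested.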

How the data were processed

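Poly(A)-selected RNA of right ventricles was sequenced from 13 libraries with a stranded kit, per the labels' protocols. DRAGEN and GRCm39 (mm39) are named in the submitters' processing notes, without a version; whether counting used strand is not given in the sources used here. Per the file headers, the authors deposited for each gene an estimated count of reads, used here rounded to whole numbers, and TPM, a level per effective length.

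Genes were filtered with filterByExpr, scaled by TMM and tested with edgeR 4.0.16 (robust quasi-likelihood, R 4.3.3) on 14588 genes with 13 libraries and 14518 with 10, with Benjamini-Hochberg adjustment over all of them. SE is the log2 fold change divided by the root of F. The fit was tested on simulated data. Totals were 14498336 to 29848597 reads per library. Members and lists were chosen with earlier results of these data known. All 37 members are named; of the other lists, the 3 called genes with the smallest p with 10 libraries among those called alike in both comparisons, plus Dsg2 and markers named for a result, chosen after their values were seen. Alternatives were DESeq2 1.42.0, limma 3.58.1 (voom, and log2(TPM + 1) and log2(TPM + 0.1)), other scalings and filters, a replicate block, an indicator for knock-in 4, 5 and 6, libraries left out in turn, and near-identical copies summed, the last chosen after seeing the data. Neighbours and opposite-strand overlaps of at least 50 bases came from a GRCm38 annotation.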

Additional observations from a re-analysis of the deposited data

Results flagged for a closer look

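A library is listed here where it lay far from the rest of its group by Dixon's criterion. Of 105 groups tested 12 met it, some of them the same library read within all 7 knock-in libraries and within knock-in 1, 2, 3 and 7, and chance alone gives about 1 in 20.

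Knock-in 7 accounts for most of them. It had 19.6 CPM of Ccl2, with the next highest knock-in library at 6.16 CPM, and 15.3 CPM of Ccl7, with the next at 5.37 CPM, in both groupings. Its Ccr2, at 46 CPM, was far above the next value of 27.3 CPM among all knock-in libraries and 27.1 CPM among the 4. Among all knock-in libraries it was also far out for Ccl17 (1.86 CPM, next 0.921 CPM), Ccl22 (3.19 CPM, next 1.18 CPM) and Ackr1 (2.63 CPM, next 1.41 CPM).

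The others were single values. Knock-in 2 was low for Cxcl10 (0.66 CPM, next 1.84 CPM) and knock-in 1 high for Cxcl13 (2.76 CPM, next 1.44 CPM) among knock-in 1, 2, 3 and 7. Wild type 2 was high for Cxcl12 (485 CPM, next 326 CPM).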

How the results depend on the processing

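With 13 libraries the count of members called lower was 3 rather than 5 with library totals and on both TPM scales, and with 10 libraries it was 3 on both TPM scales. Members called higher on log2(TPM + 1) were 22 with 13 libraries and 24 with 10. Of all tested genes, 52.5% and 53.3% were called higher on that scale and 7.45% and 6.36% lower. On log2(TPM + 0.1) the shares called lower were 7.53% and 6.43%, and with library totals 11.4% and 10.5%. The other genes of the chemokine system called lower went from 6 to 3 on both TPM scales with 13 libraries, and with 10 libraries to 3 with library totals and to 1 on both TPM scales. These scalings raise the median of all tested genes, though not every gene. It was 0.33 and 0.26 with library totals and 0.39 and 0.32 on the log2(TPM + 1) scale, beside 0.08 and 0.02 with TMM. Ccl2 turned negative and was called with 13 libraries without knock-in 7, at -0.508, and over the libraries left out in turn it ranged from -0.508 to 0.162. Ackr3 lost its call on the TPM scales (adjusted p = 0.61 and 0.817 on log2(TPM + 1)), and Cxcl14 with 10 libraries did too (adjusted p = 0.0513). Over the single genes named, 1054 values with 13 libraries kept sign and side of the threshold, 18 changed sign without a call, 25 gained a call, 19 lost it and 1 reversed. With 10 libraries these were 836, 18, 20, 18 and none. Both tallies hold genes of the other lists that were named because they were called in both comparisons, so their kept calls are partly fixed by that choice. The tally with 13 libraries also counts the 10-library fit as an alternative. Calls were gained by Ccl6, Ccl9, Ccl19, Cxcl1, Cxcl14 and Ccr1 with 13 libraries and by Ccl6, Ccl7, Ccl19, Cxcl1 and Cxcl12 with 10. Low counts limit Ccl3, Ccl4, Cxcl2 and Cxcr2, which were tested in neither comparison. The cause of these changes was not tested.

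With the replicate block, over libraries whose number is in both groups, members called higher fell from 19 to 12 and other genes called higher from 61 to 32 with 10 libraries, where 3 pairs remain; of all tested genes the share called higher fell from 22.3% to 9.58%. Members called with 13 libraries and the block were 14 higher and 4 lower, beside 15.6% and 17.5% of all tested genes. The block also leaves out knock-in 7, whose number no wild-type library has. The effect of the block and that of losing this library cannot be told apart. Tested members that lost their call with the block were Ccl22, Ccl25 and Cxcl10 with 13 libraries. With 10 libraries they were Ccl5, Ccl9, Ccl17, Cxcl10, Ccr1, Cxcr4 and Ackr3. The labels do not say whether the numbers pair the samples. Correlations of same-numbered deviations ran from -0.0986 to 0.141 over 6 pairs, too few to settle it.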
